A study of Mus musculus with 4 samples.

Results

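The natural killer gene complex is a stretch of mouse chromosome 6 packed with genes of C-type lectin-like receptors and their ligands, and Clec7a, the gene deleted in these mice, lies inside it. Members were all annotated genes that start between 128.3 and 130.4 Mb of chromosome 6 (GRCm38), leaving out Clec7a itself and Cd69. The window held 113 genes of the 54688 gene identifiers listed in all 4 libraries, from Rpl18-ps2 (128313357 to 128313923) to Gm6584 (130398272 to 130407935). The nearest genes outside, Gm21893 below and Gm15861 above, were listed at 0 TPM (transcript abundance scaled to library size) in every library. Of the 113, 51 are protein coding in GENCODE, 28 were listed at 0 in all 4 libraries, 50 reached 1 TPM in at least 1 library and 16 reached 10 TPM.

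All mice were germ-free, and tumours were induced with azoxymethane (AOM), a carcinogen, followed by DSS (dextran sodium sulfate) at 1% in 3 cycles, which injures the colon lining; tissue was taken 36 weeks after AOM. The 4 groups of 1 library each were polyps of Clec7a-/- mice (KO polyp), polyps of wild-type mice (WT polyp), non-polyp colorectal tissue of Clec7a-/- mice (KO non-polyp) and non-polyp colorectal tissue of wild-type mice (WT non-polyp). Each library pooled RNA, from 5 mice of a genotype per the series text, although the legend of the study gives 1 fewer for WT. The study states that germ-free KO mice formed no polyps, so KO polyp is the name on the label, and the tissue behind it is uncertain. The KO line was backcrossed to C57BL/6J, and germ-free WT mice were bought whereas germ-free KO mice were derived by caesarean section. The deletion, the source of the mice and any chromosome 6 sequence inherited along with the deletion therefore cannot be told apart. With 1 library a group there is no replicate error, no test was run, and each difference is one between pools.

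In this complex the Nkrp1 receptors (Klrb1 genes) of natural killer cells face the Clec2 proteins, ligands whose genes lie among those of their receptors. Further along come the Dectin-1 cluster of myeloid and endothelial lectins, then CD94, NKG2D and the NKG2 chains, and last the Ly49 receptors (Klra genes), which read MHC class I molecules. In the gut, some Clec2 genes are made by the epithelium itself. Neighbouring genes are related copies of one another, and many of them are pseudogenes.

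The study's own threshold was applied: a log2 ratio of TPM + 1 greater than 1 counts as higher, and one less than -1 as lower. Where 2 ratios are given for a gene, the polyp ratio precedes the non-polyp ratio. Clec7a checked the labels: it stood at 0.102 TPM in KO polyps against 31.2 TPM in WT polyps, and at 0.0766 TPM in KO non-polyp against 5.97 TPM in WT non-polyp tissue, with log2 ratios of -4.87 and -2.69. In polyps 20 of the 113 members were higher and 8 lower in KO, together 24.8%, where 9.34% of all genes passed the threshold (5.05% higher and 4.29% lower). In non-polyp tissue 5 members were higher and 3 lower in KO, together 7.08%, against 1.4% of all genes (0.763% higher and 0.636% lower). The median log2 ratio over all members was 0 in both tissues, as over all genes. Among members with a mean of at least 1 TPM it was 0.47 in polyps and 0.12 in non-polyp tissue, against -0.05 and 0.02 over all genes at that level. That mean is over the libraries compared, so a gene can reach it through the library where it is high. Mir7649, at 6.58 TPM in KO polyps and 0 elsewhere, did so.

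The question the window was chosen for is which genes differ with genotype alike in both tissues. These were 6 of 113 members (5.31%), with 273 of all genes (0.499%; 0.272% higher and 0.227% lower in KO) doing so: Clec2j, Gm44216, Gm44215, BC064078 and Klra17 were higher in KO, and Tulp3 was lower. With a pseudocount of 5 TPM in place of 1, Clec2j, Gm44216 and BC064078 stayed alike, and Gm44215, Klra17 and Tulp3 no longer passed the threshold in both tissues. The polyp and non-polyp comparisons share no library, but per the study both tissues came from the same pools of mice. A difference between the pools could appear in both tissues, so the 2 comparisons are not independent. On the rest of chromosome 6, 56 of 3015 genes were alike (1.86%), and 20 of 2778 (0.72%) once antigen receptor segments were left out. Among genes with a mean of at least 1 TPM, 5 of 38 members (13.2%) were alike, against 251 of 17498 genes (1.43%) in the whole series. Here too a gene can reach that mean through the libraries where it is high. Windows of equal length just below and just above the complex held 0 of 61 and 0 of 67 alike genes, but only 13 and 4 of those genes had a mean of at least 1 TPM.

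**Figure D1:**
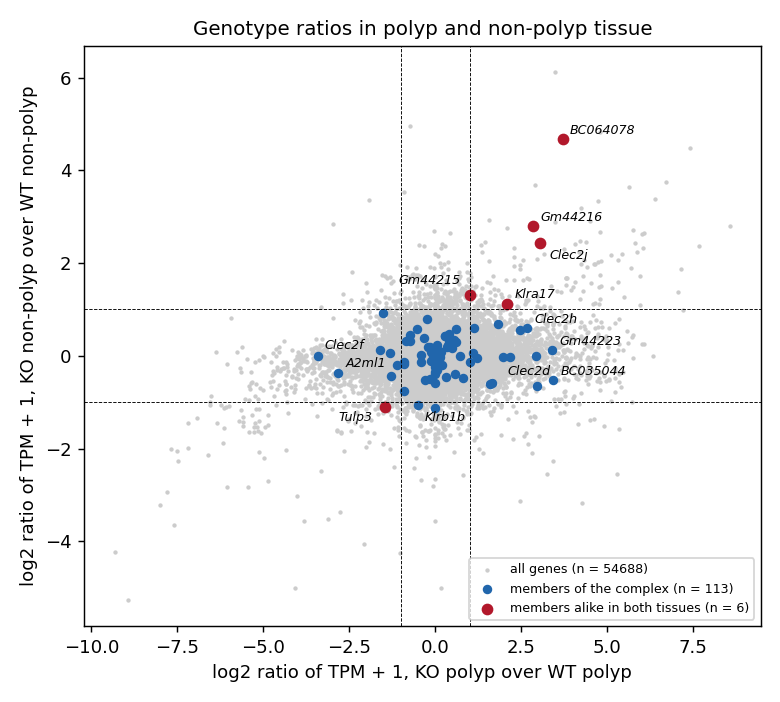
Each point is a gene, with its log2 ratio of TPM + 1 in KO polyps over WT polyps on the x axis and in KO non-polyp over WT non-polyp tissue on the y axis; dashed lines mark 1 and -1, grey points are all 54688 genes, blue the 113 members and red the 6 members alike in both tissues. BC064078, Gm44216 and Clec2j stand in the upper right, whereas Clec2h, Clec2d and Gm44223 are far to the right but near 0 on the y axis.

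The sequences of the Clec2 group show how close these copies are. Clec2j is annotated as an unprocessed pseudogene, and over 515 aligned bases its transcript is 86.6% identical to that of Clec2d, the ligand also called Clr-b. Identity over the aligned stretch was 86.2% with Clec2g, 79.5% with Clec2f, 76.9% with Clec2h and 80.8% with BC064078, the last over 287 bases. The same 75 bases of each transcript (GENCODE, GRCm38, chromosome 6; in Clec2j, positions 390 to 464 of the transcript, across an exon boundary between 128652490 and 128655210 on the minus strand) are shown, with capitals where a letter differs from Clec2j.
Clec2j: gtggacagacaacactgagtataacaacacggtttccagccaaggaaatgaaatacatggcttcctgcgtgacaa
Clec2d: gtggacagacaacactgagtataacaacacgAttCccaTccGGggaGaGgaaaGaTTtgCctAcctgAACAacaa
Clec2g: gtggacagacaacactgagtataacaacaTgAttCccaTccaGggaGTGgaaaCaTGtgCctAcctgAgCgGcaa
Clec2h: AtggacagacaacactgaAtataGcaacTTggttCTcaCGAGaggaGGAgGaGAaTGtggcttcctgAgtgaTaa
Clec2f: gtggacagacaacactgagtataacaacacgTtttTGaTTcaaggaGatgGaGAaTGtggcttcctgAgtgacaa
BC064078: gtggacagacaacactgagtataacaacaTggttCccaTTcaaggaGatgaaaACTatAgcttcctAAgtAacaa
Of the Clec2 genes not shown, Clec2i was 82.9% identical to Clec2j over 515 aligned bases and Clec2e 75.5% over 519. In the 75 bases shown Clec2d and Clec2g each differ from Clec2j at 16 positions, Clec2h at 21, and Clec2f and BC064078 at 12. The left end is shared almost letter for letter, and most of the differences lie in the rest of the 75 bases. Only a read confined to such a shared run would match more than 1 of these genes equally well. How the authors placed such reads is not given in the sources used here, and whether any reads were shared was not tested. Gm44216, a processed pseudogene of 157 bases inside an intron of Clec2j on the opposite strand (128658110 to 128658266), is short enough to show whole.
Gm44216: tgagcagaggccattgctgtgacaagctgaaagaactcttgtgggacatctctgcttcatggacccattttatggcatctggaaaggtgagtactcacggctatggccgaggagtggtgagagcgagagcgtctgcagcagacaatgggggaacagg
Over all its 157 bases Gm44216 is 88.5% identical to a transcript of BC035044, another member, which is 1 of 2 other genes its sequence matched.

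BC064078 (128992952 to 129008040), annotated as a transcribed unprocessed pseudogene, had the largest genotype ratio of any member in both tissues. It stood at 30.3 TPM in KO polyps against 1.39 TPM in WT polyps, and at 39.0 TPM in KO non-polyp against 0.566 TPM in WT non-polyp tissue. Both KO libraries lay far above both WT libraries, with log2 ratios of 3.71 and 4.68. Read depth over the gene, estimated from deposited values, was 37.9 per base in KO polyps, 1.75 in WT polyps and 0.734 in WT non-polyp tissue. Depth could not be estimated for this gene in KO non-polyp tissue. About 568 bases of one of its transcripts are 90.0% identical, on the opposite strand, to part of a transcript of Vmn1r20, and stretches of it matched 402 other genes in all, so part of its reads are uncertain.

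Clec2j (128652416 to 128661820) stood at 7.71 TPM in KO polyps against 0.0527 TPM in WT polyps, and at 13.5 TPM in KO non-polyp against 1.69 TPM in WT non-polyp tissue. Again both KO libraries exceeded both WT libraries, with log2 ratios of 3.05 and 2.43. Gm44216, within it, stood at 19.3 TPM in KO polyps against 1.81 TPM in WT polyps, and at 25.3 TPM in KO non-polyp against 2.78 TPM in WT non-polyp tissue (2.85 and 2.80). The 2 annotations share no exon base, but reads without strand cannot tell RNA of this pseudogene from unspliced RNA of Clec2j, so they may not be separate signals. Its estimated depth was 24.0 per base in KO polyps, 2.28 in WT polyps and 3.61 in WT non-polyp tissue.

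These 3 genes, Clec2j, Gm44216 and BC064078, are the members in which the lower KO library exceeded the higher WT library by more than 1 log2 unit. With a pseudocount of 5 TPM this held for 2 of them, and Clec2j was lost. They made up 2.65% of the members, against 0.201% of all genes higher in KO by the same measure and 0.32% in either direction. They lie within 355.6 kb of each other, with starts 479.8 to 814.7 kb below that of Clec7a. Of 20 other members that start between Clec2j and BC064078, 7 had a mean of at least 1 TPM, and only Gm44215 was alike in both tissues.

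Gm44215, a transcript model of unsettled type above Clec2h (128691073 to 128693783), was scarce. It stood at 1.21 TPM in KO polyps against 0.0886 TPM in WT polyps, and at 2.12 TPM in KO non-polyp against 0.258 TPM in WT non-polyp tissue (log2 ratios 1.02 and 1.31). Both KO values were above both WT values, but the polyp ratio only just passed the threshold. The first 2079 of its 2711 bases are 96.3% identical to a transcript of D10Wsu102e, and it matched 222 other genes, so its reads are uncertain.

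**Figure D2:**
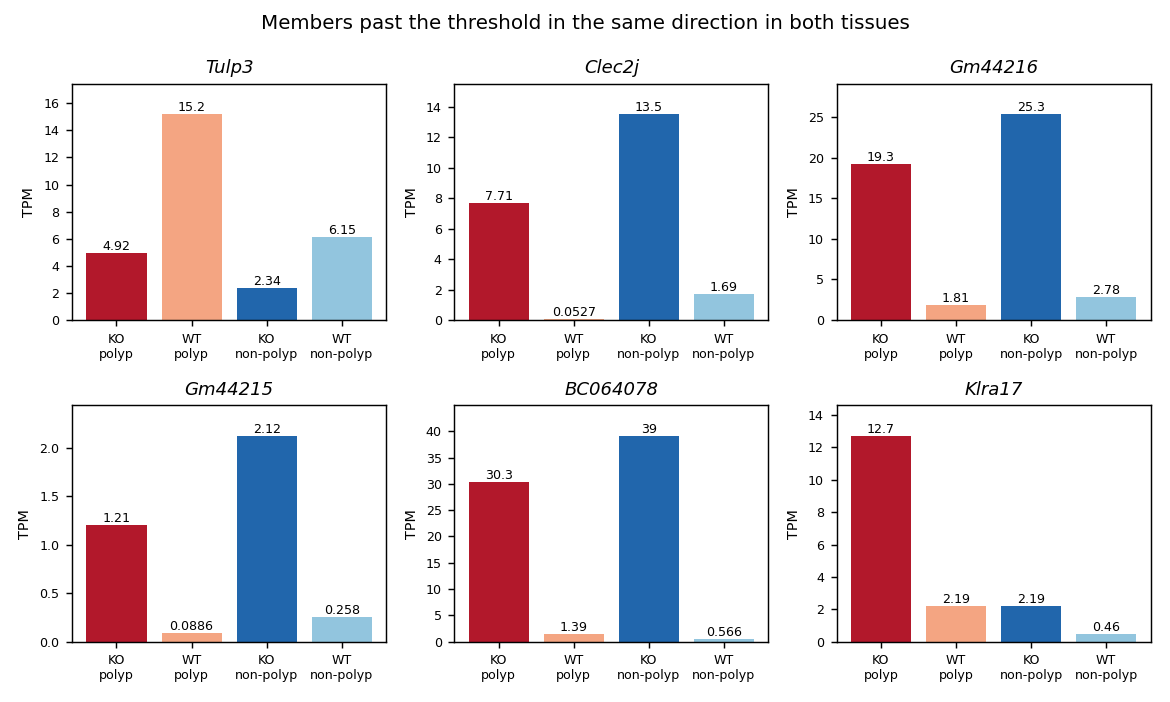
Bars give TPM of the 6 members alike in both tissues, in chromosome order, in 1 library each of KO polyp, WT polyp, KO non-polyp and WT non-polyp tissue; there are no error bars because each group has 1 library. BC064078, Clec2j, Gm44216 and Gm44215 are high in both KO libraries, Klra17 is as high in WT polyps as in KO non-polyp tissue, and Tulp3 runs the other way.

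Klra17 encodes Ly49Q, the Ly49 receptor of plasmacytoid dendritic cells and other myeloid cells, and it was the only Ly49 gene at 1 TPM or more. It stood at 12.7 TPM in KO polyps against 2.19 TPM in WT polyps, and at 2.19 TPM in KO non-polyp against 0.460 TPM in WT non-polyp tissue (log2 ratios 2.10 and 1.13). It thus varied with tissue as well: the polyp library was higher than the non-polyp library in both genotypes, by 2.10 in KO and 1.13 in WT. A list of genes of plasmacytoid dendritic cells was added after values had been seen. In KO polyps 4 of its 8 genes were higher and 1 lower, where 9.34% of all genes passed the threshold. In KO non-polyp tissue 0 were higher and 1 lower, where 1.4% of all genes passed it. Siglech, a surface marker of these cells, stood at 6.60 TPM in KO polyps against 0.191 TPM in WT polyps, and at 0.552 TPM in KO non-polyp against 0.857 TPM in WT non-polyp tissue. Tcf4, their defining transcription factor but also made by stromal cells, was lower in KO in both tissues, at 4.95 TPM in KO polyps against 42.1 TPM in WT polyps and at 5.72 TPM in KO non-polyp against 19.5 TPM in WT non-polyp tissue. The part of these cells in the Klra17 values was not tested. In bulk tissue, fewer cells of a type and less RNA per cell cannot be told apart.

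Tulp3, which carries receptors into primary cilia, lies at the lower end of the window (128321161 to 128355851). It fell to 4.92 TPM in KO polyps, against 15.2 TPM in WT polyps, and to 2.34 TPM in KO non-polyp tissue, against 6.15 TPM in WT non-polyp tissue (log2 ratios -1.45 and -1.10). Its highest KO value was below its lowest WT value, but by less than the threshold. Tulp3 varied with tissue as well: the polyp library was higher than the non-polyp library by 1.18 in WT and 0.83 in KO. No other member below Clec2j passed the threshold in both tissues, and those with the same sign in both went either way. Among the negative ones, the adjacent antisense gene Gm26770 had -0.92 and -0.17, Itfg2 had -0.91 and -0.13, and Fkbp4 had -1.29 and -0.43. A2ml1, scarce outside WT polyps, had -2.82 and -0.36. Among the positive ones, Gm18009 had 1.13 and 0.61, Gm44371 had 0.61 and 0.30, Gm10069 had 0.39 and 0.48, and Nrip2 had 0.40 and 0.34. Foxm1, a transcription factor of mitosis, had ratios of -0.73 and 0.45, and Rhno1, of the DNA damage response, -0.15 and 0.19. Stretches of the Tulp3 transcript matched 419 other genes, the longest being 777 bases at only 74.6% identity to Tub. Whether any of its reads were shared with other genes was not tested.

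For the 2 alike members with a promoter entry in RefSeq (GRCm38.p6, chromosome 6), and for Clec2h, the most abundant lectin gene of the complex, the 250 bases before the start are shown with motif matches in capitals. The search covered both strands. It used the letters TATAAA for the core promoter box bound by TBP and the letters CCAAT for the box bound by NF-Y. It used GGGCGG for the box bound by Sp1, and GAGGAAGT for PU.1 of myeloid cells. For the intestinal factors CDX and HNF4 it used TTTATNG and CAAAGTCCA, in that order.
Klra17 (129876673 to 129876922, minus strand): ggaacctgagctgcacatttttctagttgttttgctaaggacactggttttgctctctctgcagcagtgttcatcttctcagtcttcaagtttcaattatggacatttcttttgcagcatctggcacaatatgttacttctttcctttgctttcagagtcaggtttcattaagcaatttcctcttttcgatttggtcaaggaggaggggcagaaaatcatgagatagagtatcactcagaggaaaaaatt
Tulp3 (128355852 to 128356101, minus strand): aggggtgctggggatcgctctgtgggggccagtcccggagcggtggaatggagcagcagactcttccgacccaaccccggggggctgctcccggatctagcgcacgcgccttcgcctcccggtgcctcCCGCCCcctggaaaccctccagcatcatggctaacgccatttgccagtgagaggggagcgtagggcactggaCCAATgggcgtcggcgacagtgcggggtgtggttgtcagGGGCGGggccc
Clec2h (128662135 to 128662384, plus strand): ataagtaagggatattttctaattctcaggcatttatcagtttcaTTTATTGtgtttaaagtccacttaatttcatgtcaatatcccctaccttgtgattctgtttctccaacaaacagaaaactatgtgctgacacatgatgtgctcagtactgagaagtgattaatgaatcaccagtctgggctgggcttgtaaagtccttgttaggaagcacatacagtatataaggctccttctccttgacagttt
Tulp3 held 3 matches, 1 to the NF-Y letters and 2 to the Sp1 letters, Clec2h held 1, to the CDX letters, and Klra17 held none. Of 32851 mouse promoters of this length, 33.8% held the NF-Y letters, 32.7% the Sp1 letters and 9.81% the CDX letters. Of 44 members with an entry, 16 held the NF-Y, 7 the Sp1 and 11 the CDX letters. The TBP letters were in 14 of the 44 (12.4% of all promoters), those of PU.1 in 1 (2.44%) and those of HNF4 in 0 (0.384%). A member counted if any of its promoter entries held the letters, whereas the shares of all promoters are per entry. The counts and the shares are therefore unlike measures.

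The 2 most abundant Clec2 ligands passed the threshold between genotypes in polyps and not in non-polyp tissue, a difference between tissues that was not tested. Clec2h (Clr-f), a gene of gut epithelium, stood at 250 TPM in KO polyps against 38.4 TPM in WT polyps, and at 289 TPM in KO non-polyp against 191 TPM in WT non-polyp tissue (log2 ratios 2.67 and 0.60). Clec2d, the ligand of the inhibitory receptor NKR-P1B, stood at 147 TPM in KO polyps against 36.3 TPM in WT polyps, and at 136 TPM in KO non-polyp against 140 TPM in WT non-polyp tissue (1.98 and -0.03). In both genes the WT polyp library was the low one and the other 3 lay closer together. Clec2j and BC064078 did not keep a fixed proportion to Clec2h: BC064078 was 12.1% of the TPM of Clec2h in KO polyps, 3.62% in WT polyps, 13.5% in KO non-polyp and 0.297% in WT non-polyp tissue, and Clec2j was 3.08%, 0.137%, 4.66% and 0.885% in the same libraries. Both proportions were higher in each KO library than in either WT library.

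Colonocyte genes moved with Clec2h and Clec2d in polyps: KO polyps had 6 of a list of 8 higher and 0 lower, and 2 were higher and 0 lower in KO non-polyp tissue. Of all genes, 5.05% were higher in KO polyps and 0.763% in KO non-polyp tissue. Slc26a3, a chloride exchanger of surface colonocytes, stood at 545 TPM in KO polyps against 7.12 TPM in WT polyps, and at 521 TPM in KO non-polyp against 435 TPM in WT non-polyp tissue. Summed TPM of the list was 4236, 1032, 5174 and 3967 in KO polyp, WT polyp, KO non-polyp and WT non-polyp tissue. Their part in the Clec2 values was not tested. Other members with the same profile were Gm44223, a pseudogene of 114 bases, at 97.3 TPM in KO polyps against 8.33 TPM in WT polyps and at 131 TPM in KO non-polyp against 120 TPM in WT non-polyp tissue, and the long RNA 2310001H17Rik, at 8.43 TPM in KO polyps against 0.703 TPM in WT polyps and at 13.7 TPM in KO non-polyp against 9.04 TPM in WT non-polyp tissue.

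The remaining Clec2 genes went several ways. Clec2i (Clr-g), a ligand of NKR-P1F, stood at 8.77 TPM in KO polyps against 0.251 TPM in WT polyps, and at 0.342 TPM in KO non-polyp against 1.10 TPM in WT non-polyp tissue (log2 ratios 2.97 and -0.65). BC035044 next to it followed it, at 12.6 TPM in KO polyps against 0.249 TPM in WT polyps and at 1.07 TPM in KO non-polyp against 1.98 TPM in WT non-polyp tissue, so that both were high in the KO polyp library alone. Clec2e (Clr-a) stood at 2.86 TPM in KO polyps against 6.20 TPM in WT polyps and at 2.39 TPM in KO non-polyp against 4.77 TPM in WT non-polyp tissue, short of the threshold in both (-0.90 and -0.77). Clec2f was listed at 9.70 TPM in WT polyps and at 0 in the other 3 libraries, with an estimated depth of 12.2 per base where it was listed. The microRNA gene Mir7649, of 56 bases, had 6.58 TPM in KO polyps and 0 in each other library, and RNA libraries of this kind do not measure mature microRNAs.

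Receptors for these ligands were scarce. Klrb1b (NKR-P1B), the inhibitory receptor for Clec2d, stood at 1.21 TPM in KO polyps against 2.14 TPM in WT polyps, and at 0.333 TPM in KO non-polyp against 1.77 TPM in WT non-polyp tissue (log2 ratios -0.51 and -1.06). It was lower in KO non-polyp tissue, and shares exon bases with Gm44511 on its own strand. Klrb1f (NKR-P1F) stood at 1.50 TPM in KO polyps against 0.0709 TPM in WT polyps and at 0.0866 TPM in KO non-polyp against 0.115 TPM in WT non-polyp tissue, so it was high in the same library as its ligand Clec2i. The other 4 Nkrp1 genes, Klrb1c (NK1.1) among them, did not exceed 0.877 TPM in any library.

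**Figure D3:**
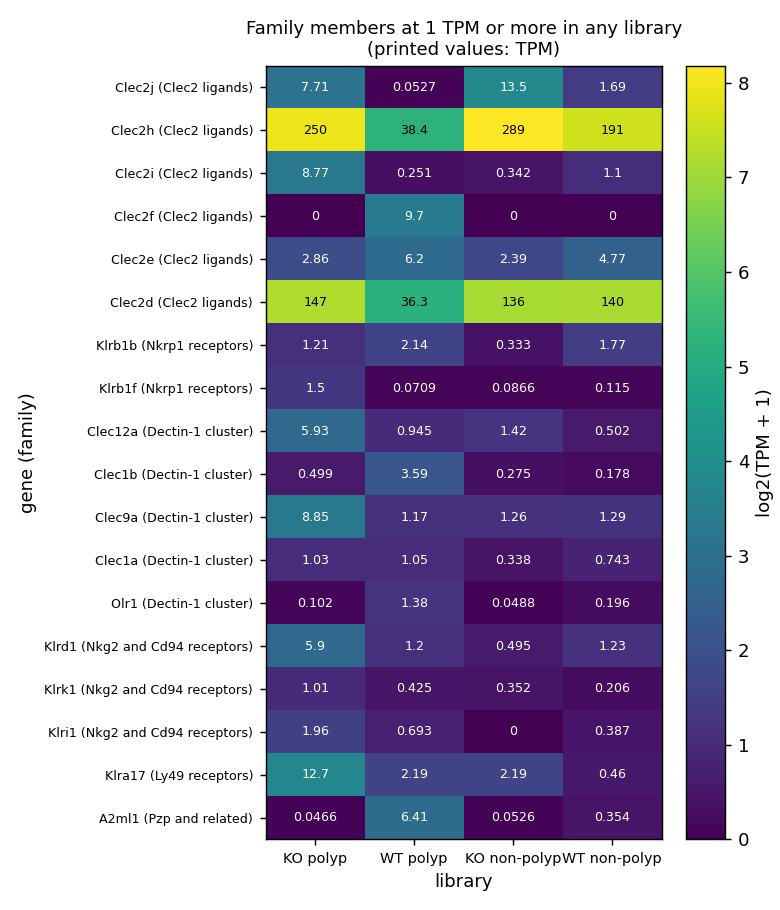
Rows are the members of the lectin and protease inhibitor families at 1 TPM or more in any library, columns the 4 libraries; colour gives log2(TPM + 1) and the printed values are TPM. Clec2h and Clec2d are the only abundant genes and are lowest in WT polyps, while most receptors are at a few TPM or less, with Klra17, Clec9a, Clec12a and Klrd1 highest in KO polyps.

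In the Dectin-1 cluster, where Clec7a lies, its neighbours did not share a direction. Clec9a, by which cross-presenting dendritic cells bind the actin of dead cells, stood at 8.85 TPM in KO polyps against 1.17 TPM in WT polyps, and at 1.26 TPM in KO non-polyp against 1.29 TPM in WT non-polyp tissue (log2 ratios 2.18 and -0.02). Clec12a, an inhibitory receptor of myeloid cells, stood at 5.93 TPM in KO polyps against 0.945 TPM in WT polyps and at 1.42 TPM in KO non-polyp against 0.502 TPM in WT non-polyp tissue (1.83 and 0.69). Both passed the threshold in polyps and not in non-polyp tissue. Clec1b (CLEC-2), the platelet receptor for podoplanin, fell to 0.499 TPM in KO polyps, against 3.59 TPM in WT polyps, and stood at 0.275 TPM in KO non-polyp against 0.178 TPM in WT non-polyp tissue. It shares 184 exon bases with Clec9a on the same strand, so part of their reads are uncertain. Olr1 (LOX-1), a receptor for oxidised lipoprotein, fell to 0.102 TPM in KO polyps, against 1.38 TPM in WT polyps, and stood at 0.0488 TPM in KO non-polyp against 0.196 TPM in WT non-polyp tissue. Clec1a, mainly of endothelium, stood at 1.03 TPM in KO polyps against 1.05 TPM in WT polyps and at 0.338 TPM in KO non-polyp against 0.743 TPM in WT non-polyp tissue. No gene of the cluster other than Clec7a passed the threshold in non-polyp tissue.

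Among the NKG2 and CD94 genes, Klrd1 (CD94), which pairs with NKG2 chains on natural killer and some T cells, stood at 5.90 TPM in KO polyps against 1.20 TPM in WT polyps, and at 0.495 TPM in KO non-polyp against 1.23 TPM in WT non-polyp tissue (log2 ratios 1.65 and -0.58). Klrk1 (NKG2D), an activating receptor for stress ligands, stood at 1.01 TPM in KO polyps against 0.425 TPM in WT polyps and at 0.352 TPM in KO non-polyp against 0.206 TPM in WT non-polyp tissue. Klri1 stood at 1.96 TPM in KO polyps against 0.693 TPM in WT polyps, and was listed at 0 in KO non-polyp and at 0.387 TPM in WT non-polyp tissue. Of these 3 only Klrd1 passed the threshold, in polyps. The other 5 genes of the group did not exceed 0.342 TPM, and the 12 Ly49 genes other than Klra17 did not exceed 0.495 TPM, 5 of them listed at 0 throughout.

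Genes of the cells that carry these receptors passed the threshold mainly in polyps, as did genes in general. Of all genes, 9.34% passed it in polyps and 1.4% in non-polyp tissue. In KO polyps 6 of 19 genes of natural killer and cytotoxic cells were higher and 1 lower, and in KO non-polyp tissue 0 were higher and 1 lower. Ccl5 stood at 31.4 TPM in KO polyps against 6.44 TPM in WT polyps and at 2.22 TPM in KO non-polyp against 2.99 TPM in WT non-polyp tissue, while Ncr1, the receptor that defines natural killer cells, was below 1 TPM throughout, at 0.625, 0.0774, 0.409 and 0.508 TPM in KO polyp, WT polyp, KO non-polyp and WT non-polyp tissue. All 8 B cell genes and 8 of 10 T cell genes were higher in KO polyps, against 0 of each in KO non-polyp tissue; Cd79a stood at 345 TPM in KO polyps against 10.2 TPM in WT polyps and at 14.9 TPM in KO non-polyp against 16.8 TPM in WT non-polyp tissue. In KO polyps 4 of 8 genes of the dendritic cells that use Clec9a were higher and 1 lower, and none passed the threshold in non-polyp tissue. Their marker Xcr1 stood at 4.23 TPM in KO polyps against 0.461 TPM in WT polyps and at 0.657 TPM in KO non-polyp against 0.682 TPM in WT non-polyp tissue. The most abundant genes of the list differed: Snx22 had a polyp log2 ratio of -0.15, Tlr3 of 0.56 and Wdfy4 of 3.69.

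Other lists bear on single members, and are to be read beside the 9.34% of all genes past the threshold in polyps and 1.4% in non-polyp tissue. Of 8 platelet genes 1 was higher and 1 lower in KO polyps. Their most abundant gene, Pf4, stood at 30.7 TPM in KO polyps against 32.2 TPM in WT polyps. Ppbp was listed at 0 in KO polyps and at 14.5 TPM in WT polyps, and Gp6 had 1.04 TPM in KO polyps and 0 in WT polyps. Among 8 genes of monocytes and neutrophils KO polyps had 2 higher and 3 lower, and KO non-polyp tissue had 1 lower. Of 8 endothelial genes 1 was higher in KO polyps. The Clec4 lectins, a second cluster on chromosome 6 outside the window, had 1 of 9 higher and 3 lower in KO polyps. None of them passed the threshold in non-polyp tissue. Adaptors and signalling genes had 4 of 10 higher in KO polyps, Ptpn6 (SHP-1) at 235 TPM there against 56.4 TPM in WT polyps, and ligands of the receptors outside the complex, such as B2m, had 3 of 10 higher; neither list had a gene past the threshold in non-polyp tissue. The part of these cells in the values of the receptors was not tested.

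Members outside the lectin families included abundant genes of general function. Fkbp4, a co-chaperone of Hsp90, fell to 152 TPM in KO polyps, against 372 TPM in WT polyps, and stood at 175 TPM in KO non-polyp against 237 TPM in WT non-polyp tissue (log2 ratios -1.29 and -0.43). On the list of 10 cell division genes, 5 were lower in KO polyps, as were 4.29% of all genes. In non-polyp tissue 0 passed the threshold, against 1.4% of all genes. A2ml1, a protease inhibitor of the alpha-2-macroglobulin family, fell to 0.0466 TPM in KO polyps, against 6.41 TPM in WT polyps, and stood at 0.0526 TPM in KO non-polyp against 0.354 TPM in WT non-polyp tissue. Gabarapl1, of autophagy, stood at 62.8 TPM in KO polyps against 48.6 TPM in WT polyps and at 78.5 TPM in KO non-polyp against 66.2 TPM in WT non-polyp tissue, ratios of 0.36 and 0.24.

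**Figure D4:**
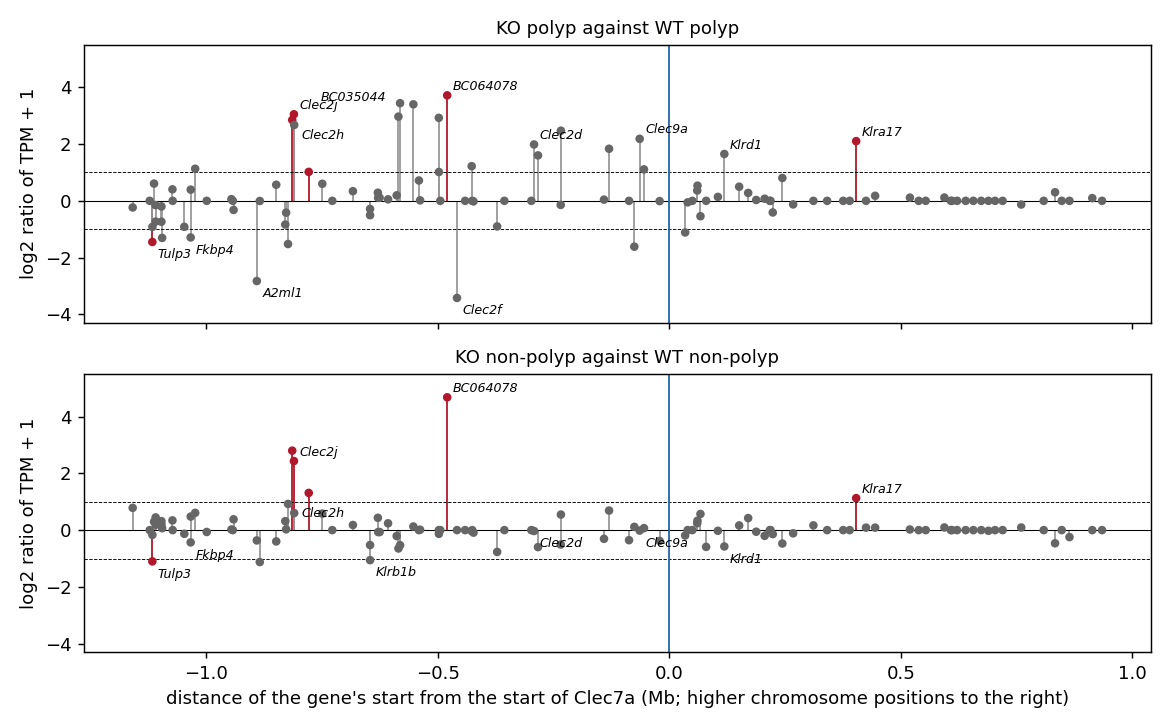
Each member is drawn at the distance of its start from that of Clec7a (x axis, Mb), with its log2 ratio of TPM + 1 (y axis) for polyps above and non-polyp tissue below; red marks the 6 members alike in both tissues, dashed lines 1 and -1, and the blue line Clec7a. In polyps members past the threshold are spread over the complex, whereas in non-polyp tissue the tall lines are those of Clec2j, Gm44216 and BC064078.

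Of 68 members that start below Clec7a 5 were alike in both tissues, and of 45 above it 1 was, Klra17, whose start lies 403.9 kb away. Most members above Clec7a were near 0: at a mean of at least 1 TPM, 4 of 33 members below it and 1 of 5 above it were alike. Going outward, the next genes alike in both tissues were Lpar5, 3.23 Mb below the window, and Hist4h4, 6.40 Mb above it. Between these, 283 genes other than members, Clec7a and Cd69 were listed, 64 of them at a mean of at least 1 TPM. That none of the 283 was alike follows from how Lpar5 and Hist4h4 were picked. Clec7a itself was alike.

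The members also varied with tissue. In WT mice 11 members were higher and 8 lower in polyps than in non-polyp tissue, together 16.8%, against 8.82% of all genes (5.16% higher and 3.66% lower). In KO mice 11 were higher and 1 lower, together 10.6%, against 4.28% of all genes (3.29% higher and 0.987% lower). These comparisons share libraries with those of genotype. Of the 20 members higher in KO than in WT polyps, 7 were also lower in WT polyps than in WT non-polyp tissue, Clec2h, Clec2d and Clec2j among them, and 10 were higher in KO polyps than in KO non-polyp tissue, among them Clec9a, Clec12a, Klrd1, Klrb1f, Clec2i and Klra17. BC035044 was in both sets. Gm44216, Gm44215, BC064078 and the pseudogene Gm18009 were in neither, so their level passed the threshold between tissues in neither genotype.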

How the data were processed

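The authors ran Trimmomatic, HISAT2 and StringTie in Galaxy on GRCm38 (mm10), per their methods; versions are not given in the sources used here. The labels name a NEBNext Ultra kit and the study another, and neither marks strand, so overlapping genes on opposite strands cannot be told apart. The deposited values used are TPM of annotated genes. Per the file headers, 3 of 4 tables also hold FPKM and a coverage signal (mean read depth per base). In these 3 the deposited TPM column also lists assembled loci, which were not used. The KO non-polyp table has another layout, with TPM and a ratio made by the authors, TPM divided by that of Gapdh, which was not used. Annotated genes summed to 906199 TPM in KO polyps, 877159 in WT polyps, 889323 in KO non-polyp and 860905 in WT non-polyp tissue. Deposited coverage and FPKM imply 2.79, 2.73 and 2.79 gigabases aligned in KO polyps, WT polyps and WT non-polyp tissue; for KO non-polyp tissue no depth can be had. Depths given for single genes are estimates: FPKM multiplied by the library's median ratio of coverage to FPKM over genes with a single annotated transcript. Read counts are unknown, so no counting interval is given.

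TPM was summed per gene identifier, and the log2 ratio of TPM + 1 was taken between libraries over all 54688 identifiers, with a threshold of 1. All 113 members have the coordinates of GENCODE vM21, which gave gene types. Transcripts were compared with blastn 2.17.0+, reporting the best local alignment per gene. Named members were those alike in both tissues, those of a family at 1 TPM or more, and others at 5 TPM or more past the threshold in a genotype comparison, and, for each list, up to 3 of its most abundant genes. Foxm1, Rhno1, Gm26770, Itfg2, Gm18009, Gm44371, Gm10069, Nrip2 and Gabarapl1 among the members were picked after values were seen. So were Gp6, Ncr1, Xcr1, Slc26a3, Siglech and Tcf4 as markers. Members, lists and rules were chosen with earlier results of these data known. The procedure was tested on simulated data. The settings varied were the pseudocount (0.1 and 5 TPM), a minimum mean of 1 TPM, 2 other scalings, the highest entry per identifier, FPKM, and lectin-like members alone; members of at least 200 exon bases, and the count without the KO polyp library, were added after seeing the data. Python 3.11.15, pandas 2.3.3, numpy 2.4.6 and matplotlib 3.10.9 were used.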

Additional observations from a re-analysis of the deposited data

How the results depend on the processing

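No paired analysis was possible because each group has 1 library, and no replicate could be left out. The counts of members past the threshold kept within 1.5 times their value under rescaling over annotated genes, median-of-ratios scaling, the highest entry per identifier, a mean of at least 1 TPM and a minimum of 200 exon bases. They moved with the pseudocount. With 0.1 TPM, 45 members passed for KO against WT polyps, 34 for KO against WT non-polyp tissue, 34 for WT polyps against WT non-polyp tissue and 30 for KO polyps against KO non-polyp tissue. With 5 TPM the counts were 16, 3, 6 and 5. At these pseudocounts all genes were counted only for being alike in both tissues. The other member counts at these pseudocounts therefore cannot be set against all genes. With FPKM, 9 members passed for WT polyps against WT non-polyp tissue. The split between higher and lower did not move by over 10 percentage points with either rescaling, but its majority turned with the pseudocount. With 0.1 TPM, KO non-polyp against WT non-polyp tissue had 15 higher and 19 lower (44.1% higher, 62.5% with 1 TPM), and WT polyps against WT non-polyp tissue had 16 and 18; with 5 TPM the second had 2 higher and 4 lower (33.3%, 57.9% with 1 TPM), and the first 3 higher and 0 lower. Members alike in both tissues numbered 10 with a pseudocount of 0.1 TPM, where 1317 of all genes were, and 3 with 5 TPM (Clec2j, Gm44216 and BC064078), where 92 of all genes were. Among lectin-like members alone they were 2. Lectin-like members were sorted by gene name, so BC064078, although related in sequence to Clec2j, was left out of that setting. Gm44215, Klra17 and Tulp3 are the ones lost with 5 TPM. Both KO libraries stood apart from both WT libraries in 7 members with 0.1 TPM, in 2 with 5 TPM (Clec2j was lost), and in 1 among lectin-like members alone. Without the KO polyp library, 6 members passed for KO non-polyp tissue against both WT libraries, 5 of them among the 6 alike members, with Klra17 lost and Klrb1b gained; 0.722% of all genes did so. Of the recomputed ratios of Clec2j, Gm44216, Gm44215, BC064078, Klra17, Tulp3, Clec2h and Clec2d, 83 kept their side of the threshold, 5 no longer passed it and none past it changed direction. Genes at a few TPM rest on few reads, and the KO non-polyp library gives no depth to judge them by.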
